A study of Mus musculus with 6 samples.

Results

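Gm5136 and AK144955 are a protein-coding gene and a long non-coding RNA (lncRNA) of mouse chromosome 10. Each was read by 1 probe of the array, ASMM10P035037 for Gm5136 and ASMM10P040765 for AK144955, which makes 2 of the 60915 probes on the array that are not controls. The probes were chosen by name, after earlier results of these arrays had shown both to be lower in Nrf2 (−/−) mice. Their difference between the genotypes is therefore given as a description, without a test. The arrays held hippocampal RNA of 3 Nrf2 (+/+) mice, given as wild type in the labels, and 3 Nrf2 (−/−) mice, given as Nrf2 gene knockout. All were of the ICR strain and aged 3 to 4 months, with 1 array per mouse. The study calls the Nrf2 (+/+) mice adult males, does not repeat the sex for the Nrf2 (−/−) mice, and names no experimental treatment. Whether the mice of the 2 genotypes were littermates is not given in the sources used here, and ICR is an outbred stock, so differences in genetic background cannot be told apart from the genotype. RNA was taken from whole hippocampal tissue, in which fewer cells of a type and less RNA per cell cannot be told apart.

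Nrf2, encoded by Nfe2l2, is a transcription factor of the basic leucine zipper family. Keap1 holds its protein level low in unstressed cells by marking it for degradation. Its DNA motif is the antioxidant response element, and Nqo1 and Hmox1 are among its best known target genes. Gm5136 is a predicted gene without a well described role in the hippocampus. The RefSeq table of GRCm38.p6 gives it the synonym C6.1AL, and gives Brcc3, a gene of the X chromosome, the synonym C6.1A. Brcc3 encodes a deubiquitinating enzyme that cleaves ubiquitin chains as part of complexes in DNA repair and in cytokine receptor turnover. Where 2 genes resemble each other a probe may bind the RNA of both, and the sequence of the Gm5136 probe was not analysed here, so its signal is uncertain in this respect. AK144955 is the accession of a cloned mouse cDNA, which had 0 matching entries in the RefSeq table, and no function of it is described here.

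Gm5136 lies within the span of Syt1, the gene for the calcium sensor of synaptic vesicle release, and on the same strand. The nearest protein-coding genes that do not overlap it are Pawr on the side of lower coordinates and Nav3 on the other. The RefSeq window around the start of Gm5136 (GRCm38.p6, chr10:108700111-108700410, minus strand) is printed because it is the stretch in which an antioxidant response element would be looked for first. It holds 250 bases before the start and 50 after it, 5′ to 3′, with the 1 motif found in capitals, a GC box on the opposite strand that ends 15 bases before the start.
Gm5136: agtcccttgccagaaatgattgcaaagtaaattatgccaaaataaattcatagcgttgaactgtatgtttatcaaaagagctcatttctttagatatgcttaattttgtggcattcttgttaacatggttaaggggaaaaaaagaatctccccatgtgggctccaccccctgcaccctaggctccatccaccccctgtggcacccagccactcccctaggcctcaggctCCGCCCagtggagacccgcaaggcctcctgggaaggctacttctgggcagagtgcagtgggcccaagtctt

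The core of the antioxidant response element, TGACNNNGC, had 0 matches on either strand of this window, while 12.4% of the 32851 RefSeq windows of the same length held it. The GC box, GGGCGG, was present in 35.7% of the windows. The letters TATAAA and CCAAT, which were also searched on both strands, had 0 matches and were held by 13.6% and 37.4% of the windows. Of the first 150 bases of the window 32% were G or C, and of the last 150 bases 67.3%, with 3 CG pairs in the whole window against a median of 7 over all windows. These matches describe letters in 1 window and say nothing about binding.

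On the arrays as a whole, the targeted gene followed the labels. The log2 difference for Nfe2l2 was −4.27 (adjusted p in limma's moderated test = 0.000672). With the replicate number as a block it stayed −4.27, with an adjusted p of 0.0580 in that test. With shared scans as a block the values were −4.36 and 0.00101. The Nfe2l2 signals on the Nrf2 (−/−) arrays did not overlap those of Nrf2 (+/+) mice. Before normalization, the Nrf2 (−/−) arrays were the brighter ones, with median signals of 136 to 181 against 86.3 to 107, and between 65.5% and 75.7% of the probes were well above background on each array. Probes were named here from the study's lists of changed transcripts. Of 21 marker genes of hippocampal neurons, glia, choroid plexus and germ cells, 0 were in those lists. The tissue label was therefore not checked against markers here.

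Gm5136 gave a clear signal in every Nrf2 (+/+) mouse and a low one in every Nrf2 (−/−) mouse. Its quantile-normalized log2 signals were 10.28, 10.03 and 10.32 in Nrf2 (+/+) replicates 1, 2 and 3. On the Nrf2 (−/−) arrays they were 6.34, 5.46 and 6.40. The groups did not overlap, and the lowest wild-type array stood 3.64 above the highest knockout array, a 12.4-fold gap. The means were 10.21 ± 0.16 (SD, n = 3) and 6.07 ± 0.53 (SD, n = 3), and the log2 fold change was −4.14 (standard error 0.29), or 17.7-fold lower in Nrf2 (−/−) mice. The spread within Nrf2 (−/−) mice came mostly from replicate 2, which lay 0.61 below its group mean. The scanner software flagged the spot as well above background on all 6 arrays, but the Nrf2 (−/−) signals were within the range of the negative controls given below, which limits how exactly the fold difference is known.

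AK144955 was likewise lower on every Nrf2 (−/−) array, where its signal came close to the detection limit. Its log2 signals were 7.78, 7.41 and 7.41 in Nrf2 (+/+) replicates 1, 2 and 3, and 4.34, 4.92 and 4.35 in Nrf2 (−/−) replicates 1, 2 and 3. The lowest wild-type array lay 2.49 above the highest knockout array, so the groups did not overlap here either. The means were 7.54 ± 0.22 (SD, n = 3) and 4.54 ± 0.34 (SD, n = 3), and the log2 fold change was −3.0 (standard error 0.24), or 8.0-fold lower. The probe was well above background on all 3 Nrf2 (+/+) arrays and on 1 of the 3 Nrf2 (−/−) arrays, that of replicate 2, whose signal was the highest of its group. With the other 2 Nrf2 (−/−) arrays set no lower than the lowest detected signal of the array, the difference was 6.79-fold. The 8.0-fold is therefore not an exact size.

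**Figure D1:**
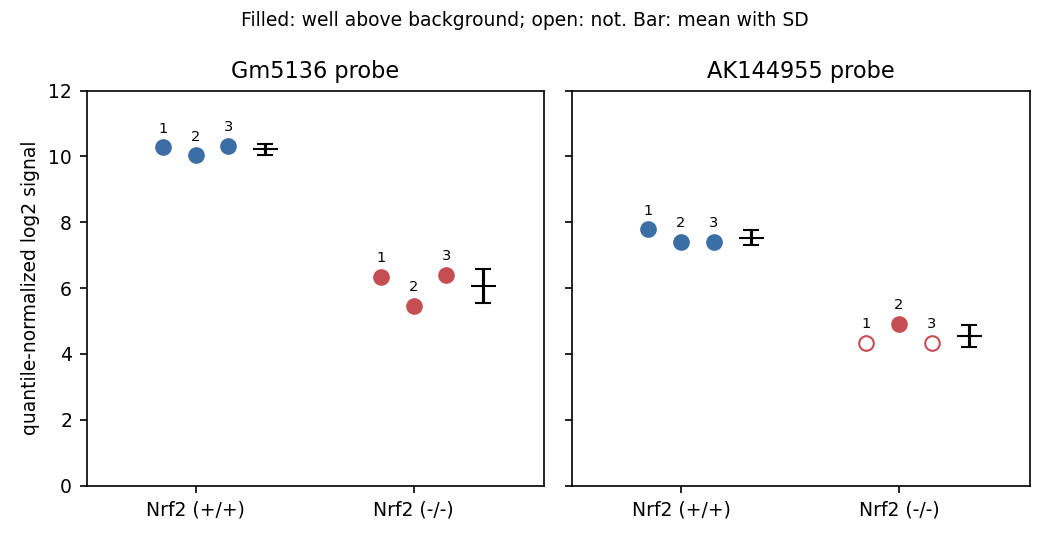
Quantile-normalized log2 signal of the Gm5136 probe (left) and the AK144955 probe (right) for each array, by genotype; numbers are replicates, filled points were well above background, open points were not, and bars give the mean with SD (n = 3). Both probes are lower on all 3 Nrf2 (−/−) arrays, and 2 of the 3 Nrf2 (−/−) points of AK144955 are open.

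In both cases each Nrf2 (−/−) array was lower than each Nrf2 (+/+) array, which held for 6.19% of the 43528 tested probes, those well above background on at least 3 arrays. As the probes were chosen on this contrast, nothing is read from that count. Without normalization between arrays the count behind this share, 2694 probes, was 177.

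**Figure D2:**
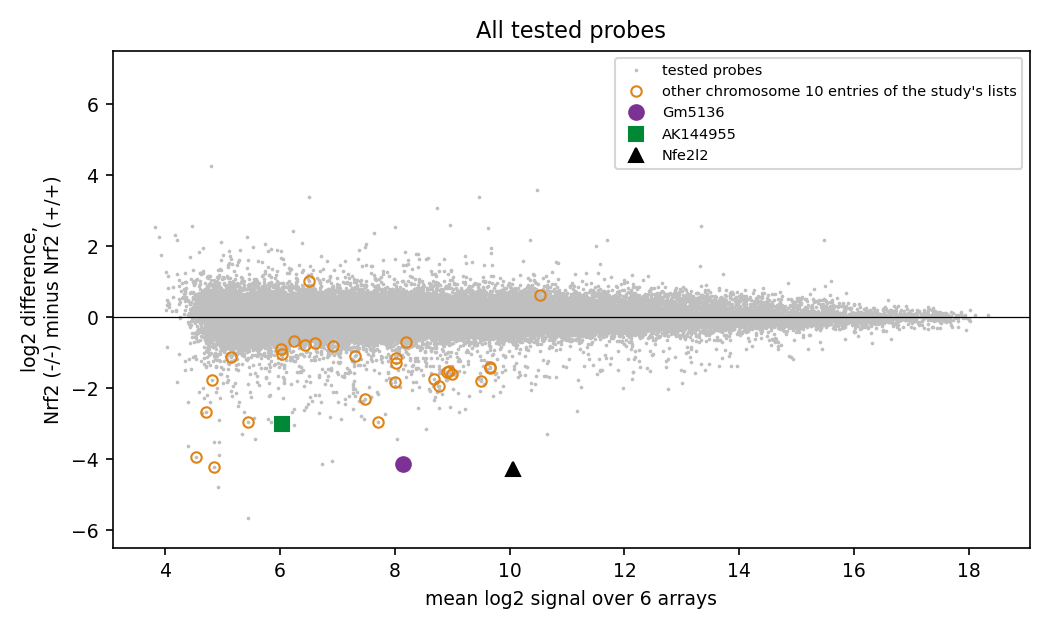
Log2 difference between the genotypes against the mean log2 signal over 6 arrays, with 1 point for each tested probe. Gm5136 (−4.14) and Nfe2l2 (−4.27) lie far below the cloud of probes at a middle signal, AK144955 (−3.0) lies at a lower signal, and open circles mark the other chromosome 10 probes of the study's lists of changed transcripts.

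The scanner values behind these numbers also put each Nrf2 (+/+) array above each Nrf2 (−/−) array, without any normalization between arrays. Within a genotype the order of the arrays could differ. The background-subtracted signal of Gm5136 was 1119, 825 and 971 in Nrf2 (+/+) replicates 1, 2 and 3, with errors given by the scanner software of 112, 82.6 and 97.2. In Nrf2 (−/−) replicates 1, 2 and 3 it was 117, 64.4 and 89.7, with errors of 13.6, 8.86 and 10.9. Each array carried 1 spot for the probe, in the same place, with 0 saturated spots and 0 spots flagged as outliers. In rank among all probes of its array, Gm5136 stood above 78.4% to 80.4% of them in Nrf2 (+/+) mice and above 34.6% to 43.9% in Nrf2 (−/−) mice.

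AK144955 had background-subtracted signals of 190.2, 138 and 119 in Nrf2 (+/+) mice, with errors of 20.4, 14.6 and 12.8. The Nrf2 (−/−) arrays gave 30.4, 46.1 and 20.9, with errors of 7.42, 7.42 and 6.51. It stood above 54.5% to 58.3% of the probes in Nrf2 (+/+) mice and above 25.2% to 29.8% in Nrf2 (−/−) mice. Its spot on the array of Nrf2 (+/+) replicate 1 had a flag on the local background, not on the signal.

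Negative-control spots, 300 per array from 15 probes without a mouse target, give the level that unspecific binding can reach. On the Nrf2 (+/+) arrays, 0 of the 300 spots were as bright as either probe. In Nrf2 (−/−) mice 25 of them on the array of replicate 1, 21 on that of replicate 2 and 5 on that of replicate 3 were at or above the Gm5136 signal, and 41, 38 and 44 in the same order were at or above that of AK144955. By mean signal, at most 1 of the 15 control probes reached Gm5136 and 2 reached AK144955. Which control probes the bright spots belonged to was not analysed. The Gm5136 signal was below the 95th percentile of the negative-control spots on the arrays of Nrf2 (−/−) replicates 1 and 2, at 117 against 137 and at 64.4 against 71.3, and above it for replicate 3, at 89.7 against 83.5. In Nrf2 (−/−) mice both signals thus lay within the range of the negative controls.

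**Figure D3:**
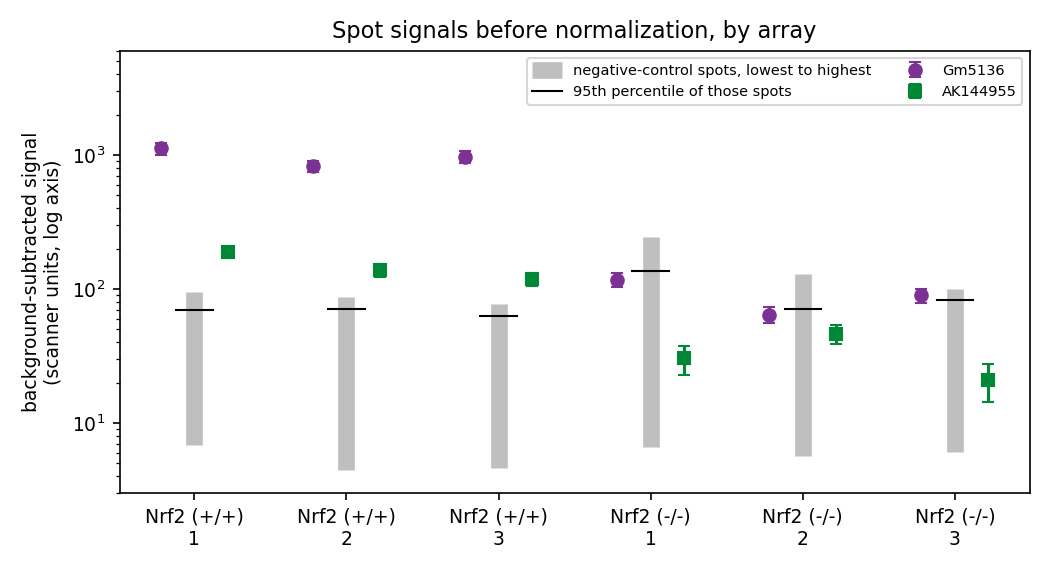
Background-subtracted signal of the Gm5136 spot (circles) and the AK144955 spot (squares) on each array on a log axis, with the error given by the scanner software; grey bars span the 300 negative-control spots of the array and the black line is their 95th percentile. Both spots are above the grey bar on the 3 Nrf2 (+/+) arrays and within it on the 3 Nrf2 (−/−) arrays.

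The surroundings of the spots did not share the difference. Of the 23 probes within 2 rows and 2 columns of the Gm5136 spot, 18 were tested, and their median log2 difference was 0.03, with a range from −0.64 to 0.71. For AK144955, 21 of 24 surrounding probes were tested, with a median of −0.09 and a range from −0.54 to 0.59. Over all tested probes the median was −0.01.

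Arrays scanned together gave the same direction. Nrf2 (+/+) and Nrf2 (−/−) replicate 1 had the same scan time and scan identifier in their headers, and there Gm5136 was 15.3-fold lower in the Nrf2 (−/−) mouse. In the scan that held both replicates 3 the difference was 15.2-fold. In the first scan session, with 1 Nrf2 (+/+) and 2 Nrf2 (−/−) arrays, Gm5136 was 20.7-fold lower, and in the second, with 2 and 1, 13.8-fold. For AK144955 the Nrf2 (−/−) arrays of replicates 1 and 3 were not well above background. With these arrays set at their lowest detected signal, AK144955 was 9.81-fold and 5.68-fold lower in the quantile-normalized signals of these scans. In the second session, set in the same way, it was 5.68-fold lower. The lowest detected signal is that of the dimmest detected probe, and the limit for the AK144955 spot may lie higher. These values are therefore no firm limits. Between the groups the difference was 4.74-fold without normalization between arrays, and 2.71-fold with the normexp background correction given below.

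Nrf2 (−/−) replicate 2, the array with the lowest Gm5136 signal, shared its scan with 0 of the other arrays. The other Nrf2 (−/−) arrays lay 0.28 and 0.33 above the group mean for Gm5136. With 3 mice per genotype these deviations are single values, and they were not tested. The Nrf2 (−/−) deviations of AK144955 are not given, since it was detected on 1 array of that group.

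The size of the difference changed with the processing. When the background was corrected by normexp with an offset of 50, starting from median spot signals, Gm5136 was 9.38-fold and AK144955 2.71-fold lower in Nrf2 (−/−) mice. Without normalization between arrays, the differences were 11-fold and 4.74-fold. With each array left out in turn, Gm5136 stayed between 14.7-fold and 19.7-fold lower, and AK144955 between 7.25-fold and 8.40-fold for 5 of the 6 arrays. Every one of these AK144955 values still draws on undetected Nrf2 (−/−) signals, so their range is no measure of stability. Without Nrf2 (−/−) replicate 2 the value for AK144955 rests on 2 Nrf2 (−/−) arrays on which it was not well above background, and no fold is given here.

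**Figure D4:**
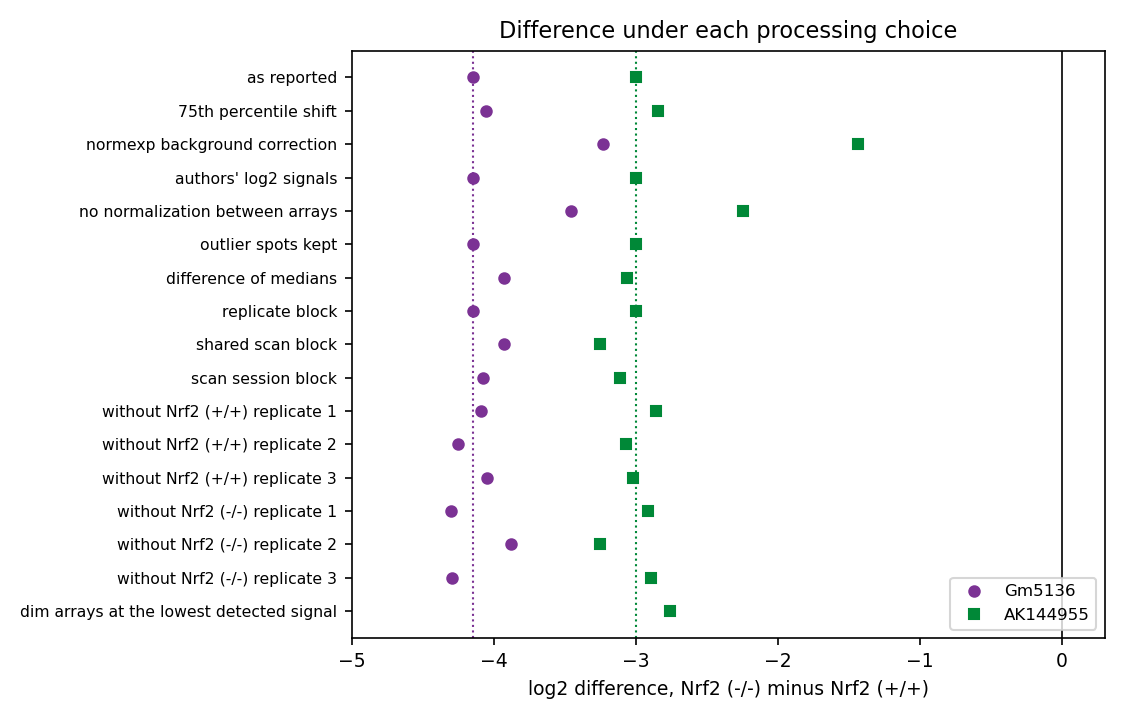
Log2 difference between the genotypes for Gm5136 (circles) and AK144955 (squares) under each processing choice, with the values as reported as dotted lines. All points are below 0; normexp background correction gives the smallest differences, −3.23 and −1.44.

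The probes with the most similar profiles were sought over the 6 arrays, each probe taken relative to its own mean, by the root-mean-square difference of log2 signals. Among 43365 tested probes with a value on every array, the nearest to Gm5136 was Nfe2l2, at 0.27. XLOC_012871 of chromosome 2 followed at 0.38, and D030028A08Rik of chromosome 11 at 0.41. Next were 2 lncRNAs of chromosome 10, A330049N07Rik and Gm15397, and as neither was well above background on any Nrf2 (−/−) array, their places rest on signals that were not detected there. XLOC_012871 was detected on 1 Nrf2 (−/−) array out of 3. The measure mostly follows the size of the genotype difference, on which Gm5136 was chosen, so no link to Nfe2l2 is read from it.

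For AK144955 the nearest profile was that of XLOC_002388, another lncRNA of chromosome 10, at 0.24. It was followed by Sytl4 of the X chromosome (0.33), a gene for a synaptotagmin-like protein of vesicle traffic, B130006D01Rik of chromosome 11 (0.33), XLOC_020790 of chromosome 6 (0.35) and AK018576 of chromosome 18 (0.37). Since the arrays fall into 2 groups, this measure mostly finds probes with a genotype difference of the same size, it takes the signals of AK144955 below background as they stand, and it says nothing of shared control.

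The study's lists of changed mRNAs and lncRNAs hold 29 other probes of chromosome 10, which were chosen on these arrays for their difference. Of these, 27 were lower and 2 higher in Nrf2 (−/−) mice, and their log2 fold changes had a median of −1.43 and ran from −4.21, for a probe not detected in Nrf2 (−/−) mice, to 1.01. For the 659 listed probes of other chromosomes, 504 were lower, with a median of −1.09, and over all tested probes 51.0% were lower. The study set a higher fold limit for lncRNAs than for mRNAs, so the medians of listed probes depend on the mix of both kinds. On chromosome 10 they were −1.78 for the lncRNAs and −1.0 for the mRNAs. The lncRNAs A330049N07Rik and Gm15397 had the lowest fitted values, but neither was well above background on any Nrf2 (−/−) array. They therefore have no settled place in the order. With the Nrf2 (−/−) arrays set no lower than their lowest detected signal, they were 5.44-fold and 4.01-fold lower in the quantile-normalized signals. These values are no firm limits either. Gm18409 was detected on 1 of 3 Nrf2 (−/−) arrays, with a log2 fold change of −2.96 (standard error 0.56). The 2 higher entries were a lncRNA at Cpm, the carboxypeptidase M gene, with 1.01 (standard error 0.25), and Dyrk2, the gene for a protein kinase, with 0.61 (standard error 0.18). The 2 listed probes of Igf1, which encodes an insulin-like growth factor, had −1.51 and −0.80.

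Of their 27 symbols, 16 could be placed in the RefSeq order of chromosome 10, and the closest of these on either side of Gm5136 were Gm18409 and Cpm, with 39 and 42 protein-coding genes between. The other 11 were not placed here. Syt1, Pawr and Nav3 were not among the listed genes, and their probes could not be named. The place of AK144955 on chromosome 10 relative to Gm5136 was not analysed here.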

How the data were processed

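Hippocampal RNA of 6 mice was hybridized to Arraystar mouse lncRNA microarrays (Agilent, 1 dye, design on mm9) after removal of rRNA and random-primed labeling. The authors extracted spot intensities with Agilent Feature Extraction 11.0.1.1, which subtracts background, raises low values to surrogates and sets flags. They also deposited log2 signals after quantile normalization in GeneSpring GX. The authors' fold changes and p-values in their lists served only to join probes to gene names (relative tolerance 0.0001), and all 715 entries matched 1 probe each.

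Here, spots flagged as outliers (16 to 91 per array) were left out, and the background-subtracted signals were taken to log2, averaged over the spots of a probe and quantile-normalized. They differed from the deposited log2 signals by a median of 0.00097. A probe was tested if 3 or more of the 6 arrays flagged it as well above background, which left 43528 probes. They were fitted with limma 3.58.1 in R 4.3.3 and p-values were adjusted over all of them by Benjamini-Hochberg, after a check on simulated data. Python 3.11.15 was used for the rest. Arrays scanned together were found by scan time and scan identifier in the file headers, and sessions were parted by more than 1 hour. Slides are not named in the headers. Normexp used the median spot signal in place of the planned mean. The replicate numbers were not taken to pair the mice.

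The members and lists were chosen with earlier results of these data known. Named genes were the 2 members, Nfe2l2, up to 3 chromosome 10 entries in each direction and the 5 nearest profiles of each member. Igf1 was added. Precision is limited by the small number of arrays. Sequences are from RefSeq tables (GRCm38.p6), where 1 of the 2 members was found.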

Additional observations from a re-analysis of the deposited data

How the results depend on the processing

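Both probes kept their direction under every alternative run, 15 for Gm5136 and 16 for AK144955, of which one, the limit on dim Nrf2 (−/−) arrays for AK144955, was chosen after the data were seen. The log2 fold changes moved beyond the spread between mice with normexp background correction (−3.23 for Gm5136 and −1.44 for AK144955) and without normalization between arrays (−3.46 and −2.25). The normexp alternative changed the background method, the offset and the input signal together, and the cause was not tested. With each array left out in turn they ran from −4.30 to −3.88 and from −3.25 to −2.86, where the −3.25, without Nrf2 (−/−) replicate 2, rests on arrays on which AK144955 was not detected and is no measured size, and for Nfe2l2 from −4.42 to −4.15. With the replicate number as a block the values were −4.14, −3.0 and, for Nfe2l2, −4.27 (adjusted p = 0.0580 from limma, against 0.000672 without the block). The deviations of same-numbered arrays correlated at −0.15, 0.43 and 0.81 for numbers 1, 2 and 3, so the numbers were not taken as pairs, although the arrays of numbers 1 and 3 were scanned together. The count of probes lower on all Nrf2 (−/−) arrays was 2694, 177 without normalization between arrays, and from 3073 to 8764 with an array left out, where fewer arrays have to be parted; it was highest without Nrf2 (+/+) replicate 2, and came to 4275 and 4273 without Nrf2 (−/−) replicates 2 and 3. AK144955 was near the background of the Nrf2 (−/−) arrays, which limits how well its difference is known.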
